A study of Homo sapiens with 9 samples.

Results

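RNA from HEK293T cells, an established human embryonic kidney line with the SV40 large T antigen, was sequenced after transfection with an siRNA against PHF12 and compared with RNA from cells given a negative control siRNA. The comparison takes the 3 libraries labelled as PHF12 knockdown and the 3 labelled as control, 6 of the 9 libraries of the series, and all genes of the count table. Of 58735 genes in that table, 18088 had enough counts to be tested. The other 3 libraries, from cells given an siRNA against SUDS3, enter the fit and serve as a second knockdown set beside the first.

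Cells of all 3 groups were grown in DMEM with fetal bovine serum and transfected for 36 h at 10 nM with Ambion Silencer Select siRNAs and Lipofectamine RNAiMAX. The control siRNA was Negative Control No. 2, and each target had 1 siRNA, so an effect of losing PHF12 and another effect of that siRNA cannot be told apart here. The siRNA sequences are unstated in the sources used here. Nothing in the labels says that replicates came from separate cultures, and p-values then reflect only how far these libraries spread, which may be technical. In bulk RNA, fewer cells of a type and less RNA per cell cannot be told apart.

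PHF12 is a PHD finger protein that binds SIN3, the scaffold of a family of histone deacetylase complexes. SIN3 has no DNA-binding activity of its own, and subunits such as PHF12 help to place it on chromatin, where HDAC1 and HDAC2 remove acetyl groups from histones. The complex is best known for lowering transcription, and it also acts within transcribed genes. An siRNA guides the Argonaute silencing complex to a matching transcript, and it can also act on other transcripts whose 3' UTR pairs with the short seed at the 5′ end of the siRNA.

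The control libraries held 37962926 to 46604093 counts and the PHF12 knockdown libraries 43334054 to 50946148. Nearly all counts were multiples of 4 (96.1% of counts above 0), so the fragments behind a level are fewer than its counts. Levels below are TMM-scaled counts per 1000000 (CPM) and can be compared between libraries within a gene. Levels compared between genes are TPM recomputed here from the counts and GENCODE 29 exon lengths. The deposited TPM were not used for that, because the gene lengths they imply showed no relation to annotated exon lengths (Spearman correlation 0.00367 across 11765 genes). ACTB, for example, had a mean of 132 in the deposited TPM of the controls and of 1839 in the recomputed TPM. The cause was not tested.

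PHF12 itself (ENSG00000109118, GRCh38 chr17:28905250-28951771, minus strand) read 50.3, 50.5 and 48.8 CPM in the controls and 27.9, 24.5 and 28.3 CPM with the PHF12 siRNA. All 3 knockdown libraries lay below all 3 controls, and 54.0% of the transcript was left (log2 fold change -0.89, SE 0.06, edgeR adjusted p = 1.88e-14). The annotated gene overlaps a tested gene on the opposite strand, and whether the counting used strand is unstated in the sources used here. PHF12 holds no copy of the hexamer described below in its 3' UTR.

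With the PHF12 siRNA, 2680 genes rose, 14.8% of those tested, and 3096 fell, 17.1%. Together 31.9% of genes passed at an edgeR adjusted p under 0.05, and 12312 did not pass. Most changes were small. The median log2 fold change was 0.26 among genes that rose (quartiles 0.18 and 0.40) and -0.36 among those that fell (quartiles -0.58 and -0.23). Rises of under 1.25-fold made up 63.2% of the rises, and falls of under 1.25-fold 43.1% of the falls. Changes of at least 1.5-fold numbered 337 rises and 752 falls. In 2533 of the genes that rose and 2944 of those that fell, the 3 knockdown libraries did not overlap the 3 controls; over all tested genes, 20.2% lay wholly above the controls and 21.9% wholly below. The balance of rises and falls depends on the scaling: 46.4% of the called genes rose under TMM, and 56.9% under upper-quartile scaling.

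The calls were mostly in protein-coding genes, of which 18.5% rose and 21.0% fell among 13868 tested. Of 981 long intergenic non-coding RNAs, 29 rose and 58 fell, and of 1221 antisense RNAs, 42 rose and 52 fell. Calls were fewer in processed pseudogenes, where 11 rose and 7 fell of 813. Genes with more RNA were called more often. Among genes under 1 recomputed TPM in the controls, 4.55% rose and 2.13% fell, whereas at 100 TPM or more 28.9% rose and 29.1% fell. By structure, genes with 20 or more exons rose in 24.5% of cases and fell in 18.2%, and genes with 2 to 4 exons rose in 13.7% and fell in 21.0%. Genes shorter than 5 kb rose in 19.6% and fell in 15.5%, and genes of 200 kb or more rose in 12.1% and fell in 27.1%. The shares called in the groups of abundant transcripts below are therefore to be read beside these shares as well.

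Gene families, taken from the start of the symbol, had different balances of rises and falls, which were not tested against each other. DEAD-box RNA helicases (DDX) had 16 rises and 2 falls of 34 genes, kinesins (KIF) 16 and 2 of 38, centrosomal proteins (CEP) 11 and 2 of 35 and nucleoporins (NUP) 10 and 3 of 21. Translation initiation factors (EIF) had 21 rises and 12 falls of 52. Solute carriers (SLC), which move small molecules across membranes, had 29 rises and 82 falls of 258, and transmembrane proteins without a family of their own (TMEM) 22 and 48 of 199. Nudix hydrolases (NUDT), which cleave nucleotide derivatives, had 0 rises with edgeR, 0 at an unadjusted p under 0.05 and 0 in DESeq2, and 6 falls of 22. Zinc finger genes (ZNF), the largest of these families, had 43 rises and 68 falls of 438. By chromosome, the share of protein-coding genes that rose ran from 9.50% on chromosome 18, where 31.0% fell, to 26.4% on chromosome 22, where 17.3% fell, leaving aside the mitochondrial chromosome. These classes differ in expression level and 3' UTR length, and the part of those in the balance was not tested.

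**Figure D1:**
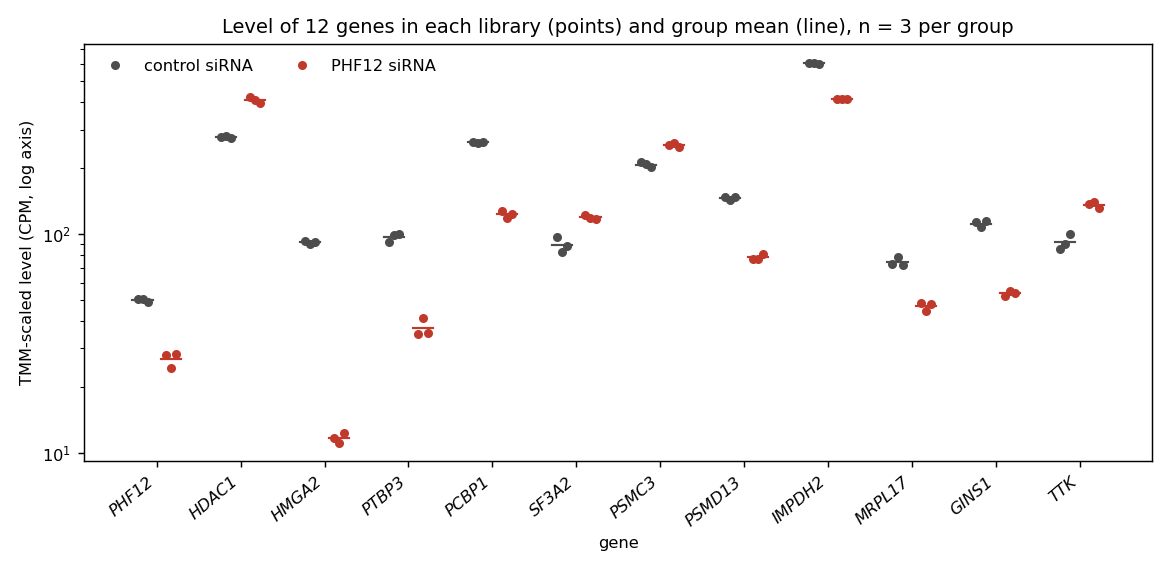
Level of 12 genes in each library, as TMM-scaled CPM on a log axis. Grey points are the 3 control libraries, red points the 3 PHF12 knockdown libraries, and lines the group means; in all 12 genes the points of the groups do not overlap, and HDAC1, SF3A2, PSMC3 and TTK lie higher with the PHF12 siRNA.

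Genes that fell with the PHF12 siRNA often carried 1 short sequence, AATCAC, in the 3' UTR. The search was made on the transcript strand, in the longest annotated 3' UTR of each gene, and the hexamer was found in 31.0% of 13659 such 3' UTRs of at least 50 bases. Ranked by the mean fold change of the genes that hold a hexamer, relative to genes with 3' UTRs of like length, AATCAC was the lowest of 4086 hexamers with the PHF12 siRNA and took rank 1059 with the SUDS3 siRNA. The hexamer was chosen from these same fold changes, so what follows describes it and tests nothing. A match is not a shown binding site.

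The sites below are shown because 7 of the larger falls described in this section carry them. The 6 capital letters mark the hexamer, and the lower case letters are its neighbours in the annotated transcript, 5′ to 3′.
HMGA2: aaataactgAATCACagtctctga
UBE2E2: ttcaatcagAATCACtgtgcatta
SLC39A6: tcttataaaAATCACaaaatttgt
TMED9: gcacctcagAATCACagtgttact
GJA1: atatttaacAATCACttatatgtg
PTBP3: agtaatttaAATCACttatgacca
PCBP1: gaatttaaaAATCACattctctgt

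These sequences are from the transcripts of GENCODE 29, and their GRCh38 positions are chr12:65951932-65951955 on the plus strand for HMGA2, chr3:23590365-23590388 on the plus strand for UBE2E2 and chr18:36109100-36109123 on the minus strand for SLC39A6. The others lie at chr5:177595676-177595699 on the plus strand for TMED9, chr6:121448801-121448824 on the plus strand for GJA1, chr9:112223418-112223441 on the minus strand for PTBP3 and chr2:70088948-70088971 on the plus strand for PCBP1. All 7 windows are in 3' UTR exons. HMGA2, an architectural protein of chromatin, has 7 copies in its 3' UTR. UBE2E2, TMED9 and PTBP3 have 2 each, and SLC39A6, GJA1 and PCBP1 have 1 each. Where a gene has several copies, the window shown is the first one followed by an A, if there is one.

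TMED9, a cargo receptor between the endoplasmic reticulum and the Golgi (ENSG00000184840, GRCh38 chr5:177592158-177596124, plus strand), read 259.9, 248 and 259.8 CPM in the controls and 72.9, 82.6 and 79.7 CPM with the PHF12 siRNA. GJA1, the gap junction protein connexin 43 (ENSG00000152661, GRCh38 chr6:121435577-121449727, plus strand), read 85.7, 86.8 and 90.8 CPM in the controls and 25.9, 28.6 and 26.6 CPM with the PHF12 siRNA. The groups stood apart in both genes (TMED9 log2 fold change -1.71, SE 0.04, edgeR adjusted p = 6.6e-28; GJA1 log2 fold change -1.70, SE 0.06, edgeR adjusted p = 1.92e-23). HMGA2 (ENSG00000149948, GRCh38 chr12:65824131-65966295, plus strand) read 92.6, 89.8 and 92.0 CPM in the controls and 11.6, 11.1 and 12.3 CPM with the PHF12 siRNA, with the groups apart by a log2 fold change of -2.97. With the SUDS3 siRNA, measured against the same controls, the log2 fold changes were 0.03 for HMGA2, 0.12 for UBE2E2, 0.06 for TMED9 and -0.04 for GJA1, none of which passed. SLC39A6, PTBP3 and PCBP1 passed there as well, at -0.91, -0.41 and -0.14 (edgeR adjusted p = 3.97e-19, 2.17e-07 and 0.00104).

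Fold changes were lower the more copies a 3' UTR held. Of 9539 protein-coding genes with no copy, 2083 rose and 1292 fell, with a median log2 fold change of 0.04. With 1 copy the median was -0.10 (339 rose and 961 fell of 2754), with 2 copies -0.15 (85 and 397 of 921) and with 3 or more -0.19 (45 and 260 of 556). With the SUDS3 siRNA the medians of the same 4 groups were 0.00, -0.01, -0.06 and -0.03. The share of falls also grew with the length of the 3' UTR, from 9.75% under 250 bases to 31.0% at 4000 bases or more. Within a length class the copies still went with more falls. Among 3' UTRs of 500 to under 1000 bases, 445 genes rose and 259 fell of 2173 without a copy, and 22 rose and 140 fell of 307 with 1 copy. At 4000 bases or more, 108 rose and 71 fell of 468 without a copy, and 76 rose and 343 fell of 815 with 2 copies or more. Its presence is therefore given beside most of the gene groups below, as a measured feature whose part in the changes was not tested. Because the hexamer was chosen for low fold changes, leaving out its holders tends to raise the balance of any list. Counts of members without it are to be read beside all protein-coding genes without a copy, of which 21.8% rose and 13.5% fell.

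**Figure D2:**
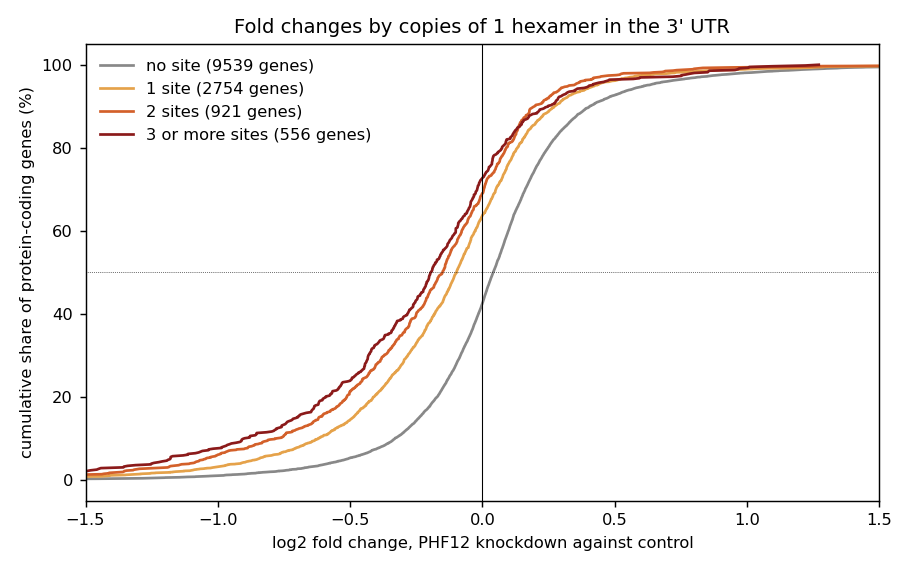
Cumulative share (%) of protein-coding genes at or below each log2 fold change of PHF12 knockdown against control, 1 line for each number of AATCAC copies in the 3' UTR. The lines with copies lie to the left of the grey line of genes with no copy, and cross 50% at -0.10, -0.15 and -0.19 for 1, 2 and 3 or more copies against 0.04 for none.

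Gene lists by function, chosen with earlier results of these data known, divided by theme. Of 208 chromatin genes on the lists, 74 rose and 38 fell, and of 227 cell cycle genes 80 rose and 43 fell. Translation genes had 105 rises and 80 falls of 302. Metabolism ran the other way, with 61 rises and 169 falls of 487 genes. The themes are broad, and these counts depend on how lists were filed. Cell cycle takes in p53 targets and apoptosis genes. Translation takes in cytosolic chaperones and a stress response list (5 rises and 25 falls of 43). Metabolism takes in mitochondrially encoded genes and the mitochondrial ribosomal proteins (8 rises and 32 falls of 79). Signalling had 59 rises and 99 falls of 377, and neuronal genes 23 rises and 42 falls of 172. Lists are given here by counts and medians, beside a median of -0.00 over all genes tested, and no list was tested as a whole.

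**Figure D3:**
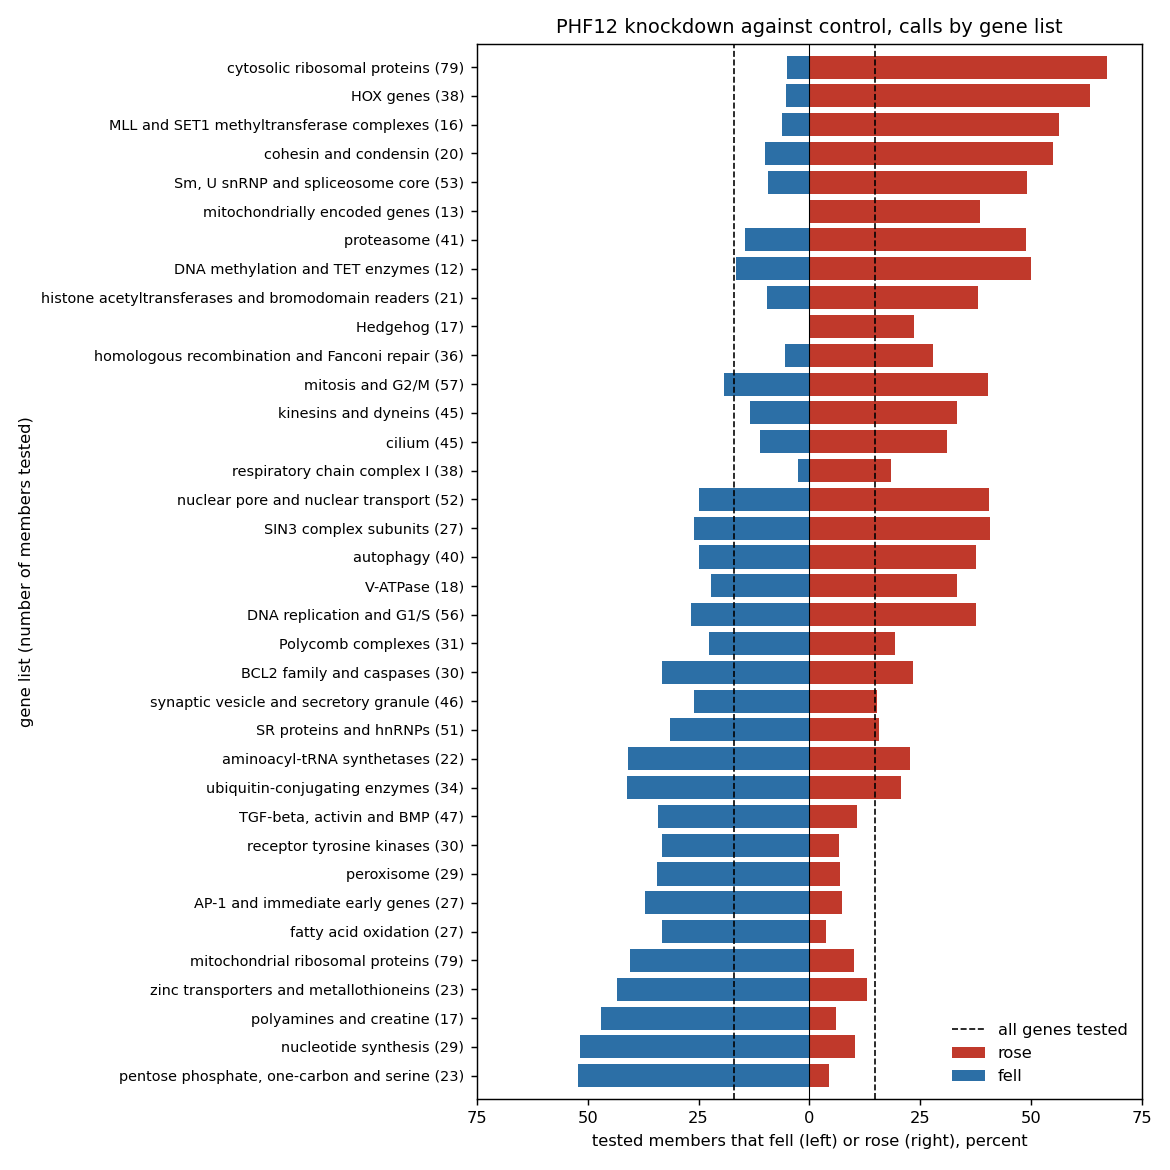
Share (%) of the tested members of each of 36 gene lists, of 93 made, that fell (blue, left) or rose (red, right) with the PHF12 siRNA, with the number tested in brackets. Dashed lines mark the shares over all genes tested, 17.1% fell and 14.8% rose; ribosomal proteins and HOX genes stand at the top and the metabolic lists at the bottom.

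Subunits of the SIN3 complex changed in both directions with the PHF12 siRNA. Of 27 genes tested, 11 rose, 7 fell and 9 did not pass, with a median log2 fold change of 0.08; without PHF12 knockdown replicate 2, 7 rose. HDAC1, the deacetylase of this and other complexes (ENSG00000116478, GRCh38 chr1:32292086-32333635, plus strand), read 276, 279 and 274 CPM in the controls and 420.5, 408 and 396 CPM with the PHF12 siRNA. All 3 knockdown libraries lay above the controls (log2 fold change 0.56, SE 0.03, edgeR adjusted p = 2.08e-17). The histone-binding RBBP7 rose by 0.26 on the log2 scale and BRMS1L, a subunit that binds the deacetylase module, by 0.29. FOXK2, a forkhead factor that binds SIN3, fell by 0.74 on the log2 scale, and SUDS3, the target of the other siRNA, fell by 0.46. FOXK2 and SUDS3 hold the hexamer in their 3' UTRs, and HDAC1, RBBP7 and BRMS1L do not. Of the 17 subunits without it, 9 rose and 4 fell.

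Genes of histone H3 lysine 4 methylation rose more often than they fell. In the MLL and SET1 complexes, 9 of 16 rose and 1 fell, with a median of 0.14, against 14.8% and 17.1% over all genes. The list also had 9 rises and 1 fall with the SUDS3 siRNA, measured against the same controls (median 0.15). With the PHF12 siRNA the methyltransferases KMT2A and KMT2B rose by 0.18 and 0.22 on the log2 scale. The shared core subunits WDR5 and RBBP5 rose by 0.23 and 0.26. KDM6A, a demethylase found in the same complexes, rose by 0.30. RBBP5 and KDM6A rose although they hold the hexamer, and of the 12 members without it 7 rose. The 1 fall was not called without control replicate 3. Of 12 DNA methylation and TET enzymes, 6 rose and 2 fell (3 rose without PHF12 knockdown replicate 3). DNMT1, the maintenance DNA methyltransferase, rose by 0.28 and the de novo enzyme DNMT3B by 0.24. The other de novo enzyme, DNMT3A, read -0.26 and TET2, which oxidises methylcytosine, -0.29, both passing with the hexamer in their 3' UTRs. TET2 did not pass without PHF12 knockdown replicate 1, where its log2 fold change was -0.22. Of the 6 enzymes without the hexamer, 5 rose. With the SUDS3 siRNA, measured against the same controls, TET2 fell alike, at -0.29 (edgeR adjusted p = 0.00371). DNMT3A, at -0.01, did not pass there.

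Among 21 histone acetyltransferases and bromodomain readers, 8 rose and 2 fell. The rises included BRPF1, the scaffold of the MOZ complex, by 0.29 and its acetyltransferase KAT6A by 0.24. The 2 that fell were TRRAP, a scaffold of acetyltransferase complexes (-0.65), and the acetyltransferase CREBBP (-0.46), and both hold the hexamer. Of the 17 members without it, 6 rose. Polycomb genes changed in both directions. RYBP, AEBP2, RNF2 and PCGF5 fell, with log2 fold changes of -0.81, -0.59, -0.58 and -0.51. RYBP, RNF2 and PCGF5 belong to the histone H2A ubiquitin ligase PRC1, and AEBP2 to the methyltransferase PRC2. RYBP, AEBP2 and PCGF5 hold the hexamer, and RNF2 does not. Of the 20 Polycomb genes without it, 5 rose and 2 fell. The PRC2 core members EZH2 and EED rose by 0.24 and 0.24, and CBX6, a PRC1 reader, by 0.35. Over 31 Polycomb genes, 6 rose and 7 fell with TMM scaling and 12 rose and 7 fell with upper-quartile scaling, so the list has no stable majority. HIRA, a chaperone of histone H3.3, fell by 0.68, and overlaps other tested genes. With the SUDS3 siRNA, measured against the same controls, RYBP and PCGF5 fell as well. Their log2 fold changes there were -0.88 and -0.22 (edgeR adjusted p = 8.42e-15 and 0.00272). AEBP2 and RNF2 did not pass with the SUDS3 siRNA.

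HOX genes, the transcription factors of body patterning that lie in 4 clusters, rose in 24 of 38 cases and fell in 2. By cluster, HOXA had 8 rises and 0 falls of 11 genes, HOXB 8 rises and 1 fall of 9 and HOXC 6 rises and 0 falls of 9, with edgeR. In HOXA and HOXC, 0 fell at an unadjusted p under 0.05 and 0 in DESeq2 as well. HOXD had 2 rises and 1 fall of 9, and 6 did not pass. Median log2 fold changes were 0.47, 0.37, 0.40 and 0.23 for HOXA, HOXB, HOXC and HOXD. Of the 24 rises, 20 were among the 29 HOX genes without the hexamer, and neither fall was. A difference between clusters was not tested, and neighbouring HOX transcripts overlap, so their reads may be shared.

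Most called genes of chromosome condensation and mitosis rose with the PHF12 siRNA, while several regulators of the cell cycle fell. Cohesin holds sister chromatids together and condensin compacts them for mitosis; 11 of their 20 genes rose and 2 fell, with a median of 0.14. The condensin subunits NCAPD2, NCAPH and NCAPG rose by 0.32, 0.31 and 0.29 on the log2 scale and the cohesin subunit SMC3 by 0.20. SMC2, the ATPase of condensin, fell by 0.34, and RAD21, the ring-closing subunit of cohesin, fell by 0.18. Both carry the hexamer, as do NCAPD2 and NCAPG, which rose. Of the 11 members without it, 7 rose.

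Of 57 genes of mitosis and G2/M, 23 rose and 11 fell. TTK, a kinase of the spindle checkpoint (ENSG00000112742, GRCh38 chr6:80003887-80042527, plus strand), read 85.7, 90.3 and 100.3 CPM in the controls and 137, 139.6 and 131 CPM with the PHF12 siRNA. The knockdown libraries all lay above the controls (log2 fold change 0.56, SE 0.05, edgeR adjusted p = 3.29e-12), and NDC80, which ties kinetochores to microtubules, rose by 0.55. CDC25A, the phosphatase that activates cyclin-dependent kinases, fell by 1.24, cyclin A2 (CCNA2) by 0.96 and the checkpoint kinase BUB1 by 0.51. These 3 hold the hexamer, and among members without it 21 rose and 4 fell of the 45.

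DNA replication and G1/S genes changed in both directions, with 21 rises and 15 falls of 56. GINS1, a subunit of the replicative helicase (ENSG00000101003, GRCh38 chr20:25407727-25452628, plus strand), read 113, 107 and 115 CPM in the controls and 52.3, 55.1 and 53.5 CPM with the PHF12 siRNA. It fell in every knockdown library relative to every control (log2 fold change -1.06, SE 0.05, edgeR adjusted p = 5.82e-20). GINS3, of the same complex, fell by 0.89 and the primase subunit PRIM2 by 0.56, while the single-strand binding protein RPA2 rose by 0.46 and ribonucleotide reductase RRM1 by 0.27. All 3 that fell hold the hexamer, and of the 42 members without it 18 rose and 6 fell. In homologous recombination and Fanconi repair, 10 of 36 genes rose and 2 fell. FANCG and FANCA, of the Fanconi core complex, rose by 0.43 and 0.35, and BRCA1 by 0.29; RAD51C fell by 0.34. BRCA1 holds the hexamer and rose, and of the 28 members without it 9 rose and 1 fell. Without control replicate 3 or PHF12 knockdown replicate 3, 1 fell on the whole list.

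Genes of the spliceosome core mostly rose among those called, and genes of the proteins that bind its substrates fell more often than they rose. Of 53 Sm, U snRNP and spliceosome core genes, 26 rose and 5 fell, with a median log2 fold change of 0.10. Of 51 SR proteins and hnRNPs, 8 rose and 16 fell, with a median of -0.02. With upper-quartile scaling the second list had 16 rises and 16 falls and a median of 0.02, so its balance depends on the scaling. A difference between the lists was not tested.

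SF3A2, a subunit of the U2 snRNP that recognises the branch point (ENSG00000104897, GRCh38 chr19:2236504-2248679, plus strand), read 97.0, 82.9 and 88.5 CPM in the controls and 122, 118 and 118 CPM with the PHF12 siRNA. The groups did not overlap (log2 fold change 0.42, SE 0.05, edgeR adjusted p = 5.5e-09). SF3A3, of the same subcomplex, rose by 0.37, PRPF4 and PRPF6 of the tri-snRNP by 0.41 and 0.40, and the helicase DHX38 by 0.39. PRPF8, the central scaffold of the spliceosome, fell by 0.15. SF3A2, PRPF4 and DHX38 overlap other tested genes. None of these 6 genes holds the hexamer, and of the 43 core genes without it 22 rose and 4 fell.

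PTBP3, a relative of the splicing repressor PTBP1 (ENSG00000119314, GRCh38 chr9:112217716-112333667, minus strand), read 91.7, 98.8 and 100.2 CPM in the controls and 34.9, 41.2 and 35.2 CPM with the PHF12 siRNA. PCBP1, a poly(C)-binding protein that also delivers iron (ENSG00000169564, GRCh38 chr2:70087454-70089203, plus strand), read 263, 259 and 263 CPM in the controls and 127, 119 and 124 CPM with the PHF12 siRNA. Knockdown libraries lay below all controls in both (PTBP3 log2 fold change -1.38, SE 0.06, edgeR adjusted p = 1.4e-20; PCBP1 log2 fold change -1.09, SE 0.03, edgeR adjusted p = 5.95e-24). The SR protein SRSF8 fell by 1.00 and HNRNPR by 0.63, and all 4 hold the hexamer. Among the 31 SR protein and hnRNP genes without it, 6 rose and 2 fell, and HNRNPUL1 rose by 0.32.

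Nuclear pore and transport genes had 21 rises and 13 falls of 52. The pore proteins NUP214 and NUP155 rose by 0.36 and 0.32. The transport receptors XPO7 and IPO11 fell by 1.15 and 0.63. NUP155, which rose, and IPO11, which fell, have 2 copies of the hexamer each, and NUP214 and XPO7 have none. Of the 33 members without it, 15 rose and 6 fell.

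**Figure D4:**
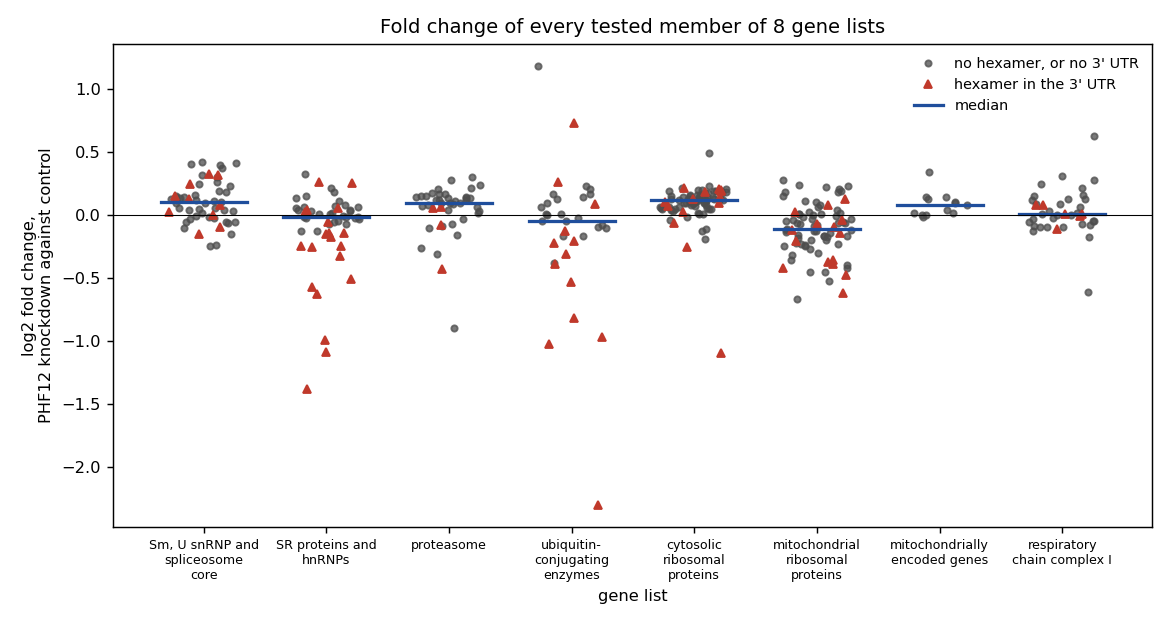
Log2 fold change of PHF12 knockdown against control for every tested member of 8 gene lists. Red triangles hold AATCAC in the 3' UTR, grey points do not (mitochondrially encoded genes have no annotated 3' UTR), and blue lines are medians; the triangles reach -1.38 among SR proteins and hnRNPs and -2.30 among ubiquitin-conjugating enzymes.

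In protein turnover, proteasome genes rose more often than they fell, and genes of the enzymes that pass ubiquitin on fell more often than they rose. Of 41 proteasome genes, 20 rose and 6 fell, with a median of 0.09. PSMC3, an ATPase of the regulatory particle (ENSG00000165916, GRCh38 chr11:47418769-47426473, minus strand), read 212, 208 and 201 CPM in the controls and 256, 259.8 and 250.3 CPM with the PHF12 siRNA. All knockdown libraries were above the controls (log2 fold change 0.30, SE 0.03, edgeR adjusted p = 3.51e-09), and its neighbour in the ATPase ring, PSMC2, rose by 0.23. PSMD13, a lid subunit (ENSG00000185627, GRCh38 chr11:236546-252984, plus strand), read 148, 143 and 148 CPM in the controls and 77.1, 77.2 and 81.3 CPM with the PHF12 siRNA. That fall was larger than any rise on the list (log2 fold change -0.90, SE 0.04, edgeR adjusted p = 9.74e-20); PSMD13 lacks the hexamer and overlaps a tested gene on the opposite strand. The activator subunit PSME3, with the hexamer, fell by 0.43. Of the 37 members without it, 20 rose and 4 fell.

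Ubiquitin-conjugating enzymes carry ubiquitin to the ligases. Of 34 tested, 7 rose and 14 fell. UBE2E2, shown above, had the lowest log2 fold change of the list at -2.30, followed among the named genes by UBE2J1 at -1.03, UBE2K at -0.97 and UBE2L3 at -0.82. All 4 hold the hexamer, and without it 6 rose and 4 fell of 21. UBE2L6, which conjugates the ubiquitin-like ISG15, rose by 1.18 and UBE2D1 by 0.73; UBE2D1 holds the hexamer.

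Among the genes called, those of the cytosolic ribosome mostly rose and those of the mitochondrial ribosome mostly fell. Of 79 cytosolic ribosomal protein genes, 53 rose and 4 fell (median 0.11), and of 79 mitochondrial ribosomal protein genes, 8 rose and 32 fell (median -0.12). RPLP0, of the ribosomal stalk, rose by 0.49 and RPS21, with the hexamer, fell by 1.10; many of these genes have pseudogenes that can share reads, these 2 included. Of the 65 cytosolic members without the hexamer, 44 rose and 2 fell. MRPL17, of the large mitochondrial subunit (ENSG00000158042, GRCh38 chr11:6680782-6683401, minus strand), read 72.7, 78.3 and 72.1 CPM in the controls and 48.2, 44.7 and 47.8 CPM with the PHF12 siRNA. Every knockdown library lay below every control (log2 fold change -0.67, SE 0.05, edgeR adjusted p = 2.54e-13). MRPL3 fell by 0.48 and MRPS30 by 0.45, while MRPS22 and MRPS7 rose by 0.28 and 0.24. MRPL3 holds the hexamer, and among the 64 members without it 8 rose and 23 fell. The count of rises was 5 without control replicate 2.

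The 13 mRNAs encoded in mitochondrial DNA had 5 rises and 0 falls with edgeR (0 falls also at an unadjusted p under 0.05 and in DESeq2). The count of rises was 9 without control replicate 1 and 3 without control replicate 2, PHF12 knockdown replicate 1 or PHF12 knockdown replicate 2. MT-ND6, on the light strand, rose by 0.34. The ribosomal RNAs of mitochondria, chosen after their values were seen, rose too: MT-RNR1 by 0.36 and MT-RNR2 by 0.48. Of 38 nuclear genes of respiratory complex I, 7 rose and 1 fell around a median of 0.00, and NDUFA10 rose by 0.28. All 8 calls were among the 32 members without the hexamer. The count of falls is not stable: it was 0 without control replicate 2 or PHF12 knockdown replicate 2, 2 without control replicate 3 and 3 without PHF12 knockdown replicate 1. Upper-quartile scaling gave 11 rises, 0 falls and a median of 0.04. The ATP synthase subunit ATP5F1A fell by 0.52; it has the hexamer and 7 pseudogenes. Of 22 aminoacyl-tRNA synthetases, which load tRNAs, 5 rose and 9 fell. FARSB fell by 0.46 and WARS by 0.42, and RARS rose by 0.34. WARS holds the hexamer, and of the 18 synthetase genes without it 5 rose and 8 fell.

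Genes of biosynthesis fell more often than they rose with the PHF12 siRNA. In nucleotide synthesis 15 of 29 genes fell and 3 rose, with a median of -0.15. IMPDH2, the enzyme that commits inosine monophosphate to guanine nucleotides (ENSG00000178035, GRCh38 chr3:49024325-49029408, minus strand), read 603, 604 and 596 CPM in the controls and 416, 416 and 414 CPM with the PHF12 siRNA. The knockdown libraries were all below the controls (log2 fold change -0.53, SE 0.03, edgeR adjusted p = 3.24e-18). Its isoenzyme IMPDH1, which has 7 pseudogenes, fell by 0.55 and the CTP synthase CTPS1 by 0.44, while ADSS, on the adenine branch, rose by 0.25 and CAD, which starts pyrimidine synthesis, by 0.16. CTPS1 holds the hexamer, and among the 19 members without it 3 rose and 7 fell.

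The pentose phosphate pathway, one-carbon metabolism and serine synthesis had 12 falls and 1 rise of 23 genes. MTR, which makes methionine with a methyl group from folate, fell by 0.36 and holds the hexamer. Among members without it, 1 rose and 8 fell of 15. The 1 rise was lost when any library except control replicate 2 was left out. In polyamine and creatine synthesis 8 of 17 genes fell and 1 rose. Spermine synthase SMS fell by 0.50, spermidine synthase SRM by 0.42 and AMD1, which supplies their aminopropyl group, by 0.34, with the hexamer in SMS only of these 3. The 1 rise was lost whichever of the 6 libraries was left out, and of the 14 members without the hexamer 5 fell.

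Peroxisome genes had 10 falls and 2 rises of 29. The rises were 0 without control replicate 2 or PHF12 knockdown replicate 2, and 1 without control replicate 1 or PHF12 knockdown replicate 1. ABCD3, a transporter of the peroxisomal membrane, fell by 1.11, SCP2, a lipid carrier and thiolase, by 0.91 and PEX19, which inserts peroxisomal membrane proteins, by 0.35, all with the hexamer. Of the 14 members without it 1 rose and 2 fell, with a median of 0.03. The median was -0.13 for the whole list and 0.04 over all protein-coding genes without a copy. In fatty acid oxidation 9 of 27 genes fell, HADH among them by 0.51, and the 1 that rose was CPT1A, which admits fatty acids to mitochondria, by 0.44. Without control replicate 3 or PHF12 knockdown replicate 2, 2 rose. HADH holds the hexamer, and of the 23 members without it 1 rose and 6 fell. Of 23 zinc transporters and metallothioneins, 10 fell and 3 rose. The importers SLC39A6 and SLC39A10, which pair with each other, fell by 1.84 and 1.24; both hold the hexamer, and without it 2 rose and 3 fell of 13.

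Autophagy genes rose in 15 cases and fell in 10 of 40. The kinase PIK3C3 and its partner BECN1, which start the autophagosome membrane, rose by 0.57 and 0.45. MAP1LC3B, the protein that coats that membrane, fell by 1.18 and ATG4A, a protease that processes it, by 1.13, both with the hexamer. PIK3C3 holds it too and rose, and of the 26 members without it 12 rose and 5 fell. BECN1 overlaps PSME3, which fell, on the opposite strand. Within the proton pump of lysosomes, the V-ATPase, 6 of 18 genes rose and 4 fell. Its catalytic subunit ATP6V1A, with the hexamer, fell by 1.53, and the stalk subunit ATP6V1D rose by 0.84. Of the 15 V-ATPase genes without the hexamer, 6 rose and 2 fell. OSTM1, a lysosomal membrane protein with 2 copies, fell by 1.67.

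Signalling genes fell more often than they rose, with 26.3% down and 15.6% up. Among all protein-coding genes, 21.0% fell and 18.5% rose. Not every signalling list had this balance. Interferon response and RNA sensing had 7 rises and 4 falls of 37. The Hippo pathway had 8 rises and 7 falls of 23, and Hedgehog, below, also had more rises than falls. The share that rose was 18.9% in the interferon list and 23.5% of the 17 Hedgehog genes. Both are near the 18.5% over all protein-coding genes, so neither list is read as a rise of its pathway. Of 47 genes of the TGF-beta, activin and BMP pathways, 16 fell and 5 rose; 3 rose without control replicate 3 or PHF12 knockdown replicate 2. The receptor TGFBR2 fell by 0.56. Among the targets, the ID proteins, which block basic helix-loop-helix factors, fell: ID1 by 0.96, ID2 by 0.83 and ID3 by 0.47. SMURF2, a ligase that removes the receptors, rose by 0.34. Of these, TGFBR2 and ID2 hold the hexamer, and among the 26 members without it 3 rose and 6 fell.

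Of 30 receptor tyrosine kinases, 10 fell and 2 rose. MET, the receptor of hepatocyte growth factor, fell by 0.89 and FGFR3 by 0.60. MET has 2 copies of the hexamer and FGFR3 none, and of the 15 receptors without it 1 rose and 3 fell. When any library except PHF12 knockdown replicate 2 was left out, 1 receptor rose. Of 27 AP-1 and immediate early genes, 10 fell and 2 rose. FOS fell by 0.49 and ATF3 by 0.30, and IER5, which holds the hexamer, rose by 0.36. Of the 19 members without it, 1 rose and 5 fell, and on the whole list 1 rose without control replicate 3. In Hedgehog signalling 4 of 17 genes rose and 0 fell with edgeR (1 fell at an unadjusted p under 0.05 and 0 in DESeq2), and 1 fell without control replicate 3 or PHF12 knockdown replicate 3. HHIP, which binds the ligand, rose by 0.97, the glypican GPC3 by 0.57 and the transcription factor GLI2 by 0.43. HHIP rose with 5 copies of the hexamer in its 3' UTR, and of the 14 members without it 3 rose. HHIP and GPC3 overlap other tested genes.

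The BCL2 family and caspases, which control apoptosis, had 7 rises and 10 falls of 30. CRADD, an adaptor of caspase-2, fell by 2.11 and the protease HTRA2 by 1.18, while the survival protein BCL2L1 rose by 0.33. HTRA2 holds the hexamer, and of the 18 members without it 7 rose and 2 fell. CRADD is 1 of those 2.

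Motor proteins rose more often than they fell, with 15 rises and 6 falls of 45 kinesins and dyneins. KIF5A, a motor of axonal transport, rose by 0.79 and KIF3A, a motor of cilia, by 0.40. The dynactin subunit DCTN6 fell by 0.92. KIF3A holds the hexamer and rose, and of the 30 members without it 10 rose and 3 fell. Cilium genes had 14 rises and 5 falls of 45, and 9 rises without control replicate 2. ARL3, a GTPase that releases lipidated cargo in cilia, fell by 0.58. Of the 35 cilium genes without the hexamer, 13 rose and 3 fell.

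Synaptic vesicle and secretory granule genes, a measure of neuron-like transcripts in this kidney line, had 7 rises and 12 falls of 46, with a median of -0.16. SYT11 rose by 1.91 on the log2 scale, SYNGR3 by 0.84 and SYPL1, a relative of synaptophysin outside neurons, by 0.70. Synaptophysin, SYP, fell by 0.82 and the complexin CPLX1 by 1.81. CPLX1 holds the hexamer, and of the 32 members without it 6 rose and 7 fell. The other neuronal lists also had more falls than rises. Voltage-gated channels had 4 rises and 12 falls of 50, and neurofilaments and neuronal RNA-binding proteins 4 and 5 of 19. Neurotransmitter receptors had 2 and 5 of 24, and adhesion and postsynaptic scaffold genes 6 and 8 of 33. Single genes that rose against this balance included the neuronal splicing factor NOVA2 (1.32), PRRT2, a presynaptic protein (1.27), the axonal stress kinase MAP3K12 (1.25) and the channel subunit SCN4B (1.62). MAP3K12 rose with 1 copy of the hexamer. PRRT2, SCN4B and SYT11 were low in the controls, with means of 1.68, 1.47 and 3.71 CPM. A pair of tubulin-binding relatives moved apart, with TPPP3 rising by 1.23 and TPPP, whose 3' UTR has 7 copies of the hexamer, falling by 1.55.

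Other large falls were of CALD1, the actin-binding caldesmon (-1.71), the carbonic anhydrase CA12 (-1.72), the prostaglandin dehydrogenase HPGD (-1.71), the transcription factor SOX21 (-1.70) and the kinase CAMK2B (-1.66). HPGD and SOX21 lack the hexamer, and the others hold it. CALD1 read 144, 148 and 146 CPM in the controls and 43.5, 44.0 and 45.9 CPM with the PHF12 siRNA, with no overlap of the groups.

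Markers of several other cell types were compared as summed levels. In summed recomputed TPM, 15 keratinocyte and carcinoma markers gave 101 to 112 in controls and 99.8 to 102 with the PHF12 siRNA, with 11 of 15 under 1 TPM on average. Kidney tubule markers summed to 24.8 to 28.01 in controls and 22.7 to 26.8 with the PHF12 siRNA. The line is of embryonic kidney, which does not make tubule its origin. Of the 22 tubule markers, 17 were under 1 TPM in both groups. At 0 in all 3 libraries were 11 in controls and 9 with the PHF12 siRNA. Fibroblast markers summed to 46.7 to 48.9 in controls and 49.9 to 54.1 with the PHF12 siRNA, and blood and endothelium markers to 2.83 to 4.30 and 3.85 to 5.30. The fibroblast sums did not overlap. Neuronal lists had larger sums that did not overlap either: neurofilaments and neuronal RNA-binding proteins (23 genes) gave 851 to 870.4 in controls and 766 to 795 with the PHF12 siRNA, and synaptic vesicle and granule genes (54 genes) 436 to 457 in controls and 459.7 to 479.7 with it. The synaptic sum was thus higher with the PHF12 siRNA, while the median log2 fold change over its tested members was -0.16. A sum leans on its abundant members. SYPL1, the relative of synaptophysin outside neurons, averaged 65.2 TPM in controls and 105 with the PHF12 siRNA. SYP went the other way, from 23.3 to 13.1 TPM. The higher synaptic sum is therefore not a measure of neuronal genes alone. Adhesion and postsynaptic scaffold genes (42 genes) gave 227 to 234 and 217 to 224, glutamate, GABA and acetylcholine receptors (52 genes) 270.5 to 278 and 249.5 to 267, and voltage-gated channels (63 genes) 124 to 127 and 115 to 123. All 3 sums were lower with the PHF12 siRNA without overlap. The channel sums barely parted, at 123.6 in the lowest control and 123.4 in the highest knockdown library. The median log2 fold change of the tested channel genes was 0.06, the other way from their sum. In controls, 24 of the 54 synaptic genes and 9 of the 23 neurofilament and RNA-binding genes were under 1 TPM. So were 40 of the 52 receptor genes, 34 of the 63 channel genes and 18 of the 42 adhesion and scaffold genes. The part of these markers in the other changes was not tested.

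The PHF12 siRNA was also compared directly with the SUDS3 siRNA, a contrast that does not use the controls. Of 18088 genes, 3824 (21.1%) were higher with the PHF12 siRNA, 4113 (22.7%) were lower, and 43.9% passed in either direction. Ribosomal protein genes were higher with the PHF12 siRNA in 69 of 79 cases and lower in 1, and HOX genes in 29 and 2 of 38. SR proteins and hnRNPs were higher in 32 and lower in 11 of 51, although more of them fell than rose against control with the PHF12 siRNA. These differences also hold changes with the SUDS3 siRNA. Against control, the SUDS3 siRNA had 2 rises and 53 falls among ribosomal protein genes and 2 and 23 among HOX genes. It had 5 rises and 35 falls among SR proteins and hnRNPs, and 25 and 4 among autophagy genes. In other lists the SUDS3 siRNA had the same majority as the PHF12 siRNA against those controls. It had 9 rises and 1 fall in the MLL and SET1 list, and 9 and 27 among mitochondrial ribosomal proteins. Nucleotide synthesis had 7 rises and 14 falls with it, and the TGF-beta, activin and BMP list 7 and 18. In the direct comparison of the 2 siRNAs, other lists differed as well. Autophagy genes were higher in 8 and lower in 21 of 40, peroxisome genes higher in 2 and lower in 14 of 29, and polyamine and creatine genes higher in 1 and lower in 11 of 17.

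ATP6V1A read 238, 231 and 239 CPM with the SUDS3 siRNA against 62.4, 70.6 and 66.5 CPM with the PHF12 siRNA (log2 difference -1.83, SE 0.04, edgeR adjusted p = 9.75e-29 for PHF12 minus SUDS3 knockdown). PSMD13 read 162, 172 and 172 CPM with the SUDS3 siRNA (log2 difference -1.10, SE 0.04, edgeR adjusted p = 1.32e-22), and GPC3 41.8, 45.9 and 43.0 against 81.2, 84.8 and 81.7 CPM (log2 difference 0.92, SE 0.05, edgeR adjusted p = 4.34e-17). In each of these 3 genes the libraries of the 2 knockdowns did not overlap. KMT2A, KMT2B, KDM6A, TET2, RYBP, PRPF4, NDUFA10, PIK3C3, UBE2D1, SYPL1 and FOS did not pass in the direct comparison. Their log2 differences ran from -0.09 to 0.12, with standard errors up to 0.13. This does not show that the siRNAs acted alike on them.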

How the data were processed

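RNA was measured by poly-A stranded RNA sequencing. Per the submitters' processing notes, the authors used Trimmomatic 0.36 and HISAT2 2.1.0, then HTSeq, on GRCh38; whether counting used strand is unstated in the sources used here. What the authors deposited are counts, whole numbers per gene and library, and TPM. Of the deposited counts from 1 to 50, 99.7% were multiples of 4. Within a gene the deposited TPM followed the counts, but the lengths they imply did not follow annotated exon lengths, and 64.7% of genes differed by over 2-fold from TPM recomputed from counts and GENCODE 29 exon lengths.

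Counts were fitted with edgeR 4.0.16 (R 4.3.3): a filter with filterByExpr (minimum count 10, by group), scaling with TMM, a robust quasi-likelihood model of all 9 libraries with a mean per group, and Benjamini-Hochberg adjustment over 18088 genes, called under 0.05. A total of 3 libraries a group limits the precision. Replicates of a group differed by more than counting error (chi-square per degree of freedom 1.38 to 2.21). Correlations of deviations between samples with the same replicate number were -0.13 to 0.16, which does not settle whether the numbers pair the samples. Tested on simulated data for this comparison (17488 genes, 50 of them changed by each fold), the model found 33 genes at 1.25-fold, 35 at 1.5-fold, 44 at 2-fold and 50 at 3-fold, with 10 false calls of 172. All gene identifiers matched GENCODE 29.

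The members, gene lists and rules were chosen with earlier results of these data known. Genes are named if they encode PHF12 or a SIN3 subunit, are among the 25 largest rises or falls of protein-coding genes, or are among the 5 largest each way on a list, all with average log2 CPM 1 or more and no overlap of the groups except the SIN3 subunits. The text names some of them (others are not reported here), and MT-RNR1 and MT-RNR2 from outside the rule. Of 149 genes named, 40 overlap another tested gene on the opposite strand, 5 on the same strand and 29 have pseudogenes. Only some of them are marked so where they are named. The 5 on the same strand are BRCA1, DCTN6, DNMT1, HIRA and IPO11. Alternatives were other scalings and filters, DESeq2 1.42.0, counts divided by 4, a replicate block, the 6 libraries alone, each library left out, and limma 3.58.1 on log2 of deposited TPM plus 1 or 0.1 and, chosen after seeing the data, on recomputed TPM plus 1.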

Additional observations from a re-analysis of the deposited data

How the results depend on the processing

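Against control, the count of genes that rose was 2254 to 2413 when 1 library was left out and 2644 to 3381 under the other settings, and the count that fell 2650 to 2764 and 2566 to 3152. All of these are within 1.5 times the counts of 2680 and 3096. The log2 fold change of PHF12 ran from -0.93 to -0.82 and passed in every setting run. With replicate numbers as a block, 2740 genes rose and 3108 fell; 5 of 9 samples correlated best with their own number, a hint from the data and not from the design. The balance of rises and falls moved with scaling, from 46.4% rises with TMM to 50.1% with DESeq2 size factors and 56.9% with upper-quartile scaling. The median of SR proteins and hnRNPs changed sign with upper-quartile scaling, from -0.020 to 0.018. The median over all genes tested moved from -0.004 to 0.035 with the same scaling. For 36 lists over all settings, the median stayed within the spread of its library medians 471 times. It moved beyond that 140 times and reversed 1 time. Counts of rises or falls on those lists stayed within 1.5 times 1130 times and did not 94 times. Of the 149 genes named, 4 did not pass in at least 1 setting: TET2 without PHF12 knockdown replicate 1 and with recomputed TPM, KMT2A with recomputed TPM, KMT2B with deposited TPM at both pseudocounts, and KAT6A with deposited TPM at the pseudocount of 0.1. No named gene changed direction in any setting run. Depth limits calls in genes of few counts, where 1 fragment appears to weigh 4 counts.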
